A study of Mus musculus with 4 samples.

Results

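The NF-κB genes examined here were the 5 subunit genes Nfkb1, Nfkb2, Rel, Rela and Relb, the inhibitor genes Nfkbia and Nfkbiz, and the signalling genes Traf2, Chuk and Birc2, 10 of the 21887 protein-coding genes in the gene table. Each gene was taken with 10 kb on either side of its annotated body (its neighbourhood, mm10 coordinates), and every H3K27ac peak of both deposited lists that touched this interval was kept. That gave 30 of the 13130 peaks of the Cre library and 17 of the 12873 peaks of the GFP library. H3K27ac is the acetylated form of a histone H3 lysine found at active promoters and enhancers. It was profiled by ChIP-seq in primary chondrocytes of C57Bl/6 mice grown ex vivo as micromass cultures. One culture was labelled hdac3-knockout and had received a Cre-recombinase adenovirus. The control was labelled wild-type and had received a GFP adenovirus, so both cultures had been exposed to virus. The labels name neither the Hdac3 allele, nor the animals behind a culture, nor the fraction of cells that took up virus, and H3K27ac peaks do not measure whether Hdac3 was lost. There was 1 library per culture, so every difference below is a difference between 2 libraries, with no replicate check.

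NF-κB proteins are dimers of Rel-family subunits that wait in the cytoplasm bound to IκB inhibitors. TNF receptors recruit the adaptor TRAF2 with the ubiquitin ligase cIAP1 (the product of Birc2), which helps to activate the IκB kinases, and the IL-1 receptor reaches the same kinases through other adaptors. The kinases mark IκBα for destruction, and the freed dimers enter the nucleus and bind κB sites. In cartilage the pathway is known for driving matrix-degrading enzymes and inflammatory mediators.

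The peak size used throughout is the summit pileup, the number of fragments stacked at a peak's highest point, solved from the deposited fold enrichment and −log10 p-value. Summits of the whole Cre list had 7 to 63 fragments and those of the GFP list 7 to 58, with a median of 12 for each. A call was named clear from 15 fragments and weak up to 9. All 9 chondrocyte marker genes, among them Col2a1, Acan and Sox9, had peaks in both libraries (153 Cre and 165 GFP peaks in all). Of 14 osteoblast, macrophage, endothelial and muscle markers, Sp7 (2 Cre and 3 GFP peaks) and Cd68 (3 GFP peaks) had any. Neither had a peak within 1 kb of an annotated end. Among all protein-coding genes 32.4% had a peak of either list in this neighbourhood.

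Acetylation at these genes was concentrated in 3 of them. Traf2 had 12 Cre and 5 GFP peaks, Nfkb1 had 10 and 3, and Birc2 had 5 in each library. Nfkbiz had 2 in each, Nfkbia had 1 Cre peak, and Rel and Chuk had 1 GFP peak each. Nfkb2, Rela and Relb had none in either list. Thus 5 of the 10 genes had a Cre peak and 6 had a GFP peak, where 26.0% of all protein-coding genes had a Cre peak in this interval and 26.0% a GFP peak. All 47 peaks had the named member as their nearest protein-coding gene, and 40 summits lay inside its body.

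**Figure D1:**
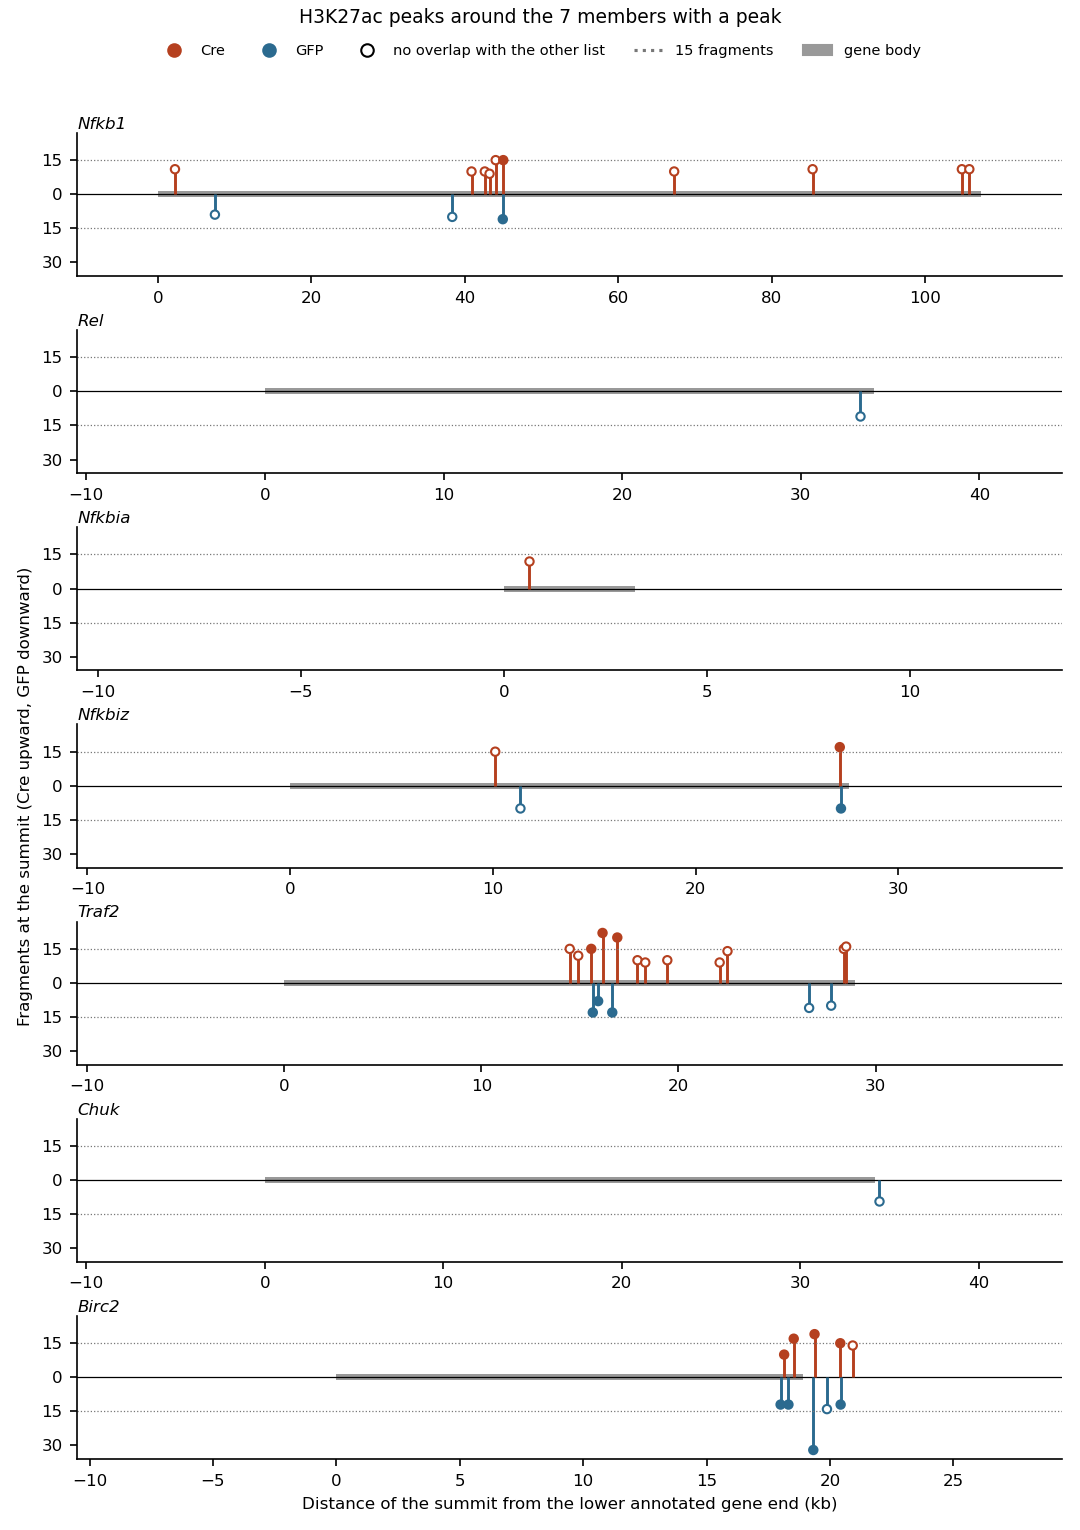
Summit pileup (vertical axes, fragments; Cre upward, GFP downward) against distance from the lower annotated gene end (horizontal axes, kb) for the 7 members with a peak; grey bars are gene bodies, dotted lines mark 15 fragments and open circles are peaks with no overlap in the other list. Traf2 and Nfkb1 carry 12 and 10 Cre peaks against 5 and 3 GFP peaks, and the tallest summit is the GFP peak of 32 fragments above the upper end of Birc2.

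The greater number of Cre peaks came from Traf2 and Nfkb1. These held 22 Cre and 8 GFP peaks, and the other 8 members together held 8 and 9. Over all 10 genes the Cre share of peaks was 63.8% (exact 95% interval 48.5 to 77.3), against 50.5% for the whole lists. Without Traf2 alone it was 60%. Without both Traf2 and Nfkb1 it was 47.1%, but these genes were picked for their surplus of Cre peaks, which by itself lowers the share. Cre peaks covered 8147 bp and GFP peaks 4217 bp. The Cre peaks covered more at Traf2, Nfkb1, Nfkbiz and Nfkbia, and the GFP peaks at Birc2, Rel and Chuk. Among all 7081 genes with any peak, 49.1% covered more in the Cre and 50.8% more in the GFP library. Neighbouring peaks lie in 1 locus and are not independent, so the interval covers counting error only.

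Traf2, which encodes an adaptor of TNF receptors, lies at 25517982 to 25546940 on chromosome 2 and is transcribed from its upper end (start site at 25546940). Its peaks formed a cluster in the interior of the gene, from 25532370 to 25537539, with 8 Cre peaks covering 2632 bp and 3 GFP peaks covering 546 bp. Clusters were linked across gaps of up to 2 kb, a distance chosen after the positions were seen. Reading upward along the chromosome, the 8 Cre summits had 15, 12, 15, 22, 20, 10, 9 and 10 fragments. The 3 GFP summits had 13, 8 and 13. The centre of the cluster was acetylated in both cultures: each of the 3 GFP peaks overlapped 1 of the 3 central Cre peaks of 15, 22 and 20 fragments. The outer peaks were in the Cre list alone.

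Of the 9 overlapping pairs at NF-κB genes, the one with the highest Cre share of fragments was also in Traf2. The Cre peak at 25533828 to 25534264 had 22 fragments (exact 95% Poisson interval 13.8 to 33.3, fold 11.5) and the GFP peak inside it had 8 (3.45 to 15.8, fold 4.62). The summits were 223 bp apart. The Cre library held 73.3% of their summed fragments (54.1 to 87.7). The genome background pileups of the caller, taken here as the depth of the libraries, would give 51.5%. Of all 5779 overlapping pairs in the lists, 1.42% had an interval that left out that share, and this was 1 of the 9 pairs at NF-κB genes. The first and last central pairs, 15 against 13 and 20 against 13 fragments, had intervals that took it in.

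Towards the Traf2 start site the libraries had different peaks. The Cre list had 2 clear calls, of 15 and 16 fragments, at 25546125 to 25546406 and 25546474 to 25546626, the nearer ending 314 bp inside the start site. The GFP list had 11 fragments at 25544478 to 25544740 and 10 at 25545615 to 25545758, the nearer ending 1182 bp inside it. The folds were alike, 6.25 and 5.09 for these Cre calls and 6.16 and 5.64 for the GFP calls. The caller's expected pileup was higher at the Cre calls (1.56 and 2.34) than at the GFP calls (0.949 at each). None of these peaks overlapped, and the gap between the closest of them was 366 bp. A further pair of Cre peaks, of 9 and 14 fragments, lay between 25539972 and 25540517, at least 3960 bp from a GFP peak.

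Nfkb1, which encodes the p105 precursor of the p50 subunit, spans 135584655 to 135691969 on chromosome 3. In the Cre list it was marked along its length, mostly by peaks of fewer than 15 fragments. The 3 GFP peaks, of 9 to 11 fragments, had their summits within 44946 bp of the lower end. A cluster of 5 Cre peaks lay between 135625490 and 135629773, with 10, 10, 9, 15 and 15 fragments, and the last overlapped the GFP peak of 11 fragments at 135629463 to 135629691. That was the one site shared by the cultures. The other 5 Cre peaks had 10 or 11 fragments each. Of these, 2 lay near the upper gene end, at 135689340 to 135689534 and 135689995 to 135690507, and the second, 513 bp wide, ended 1462 bp below that end. No GFP peak lay within 59648 bp of them. The remaining GFP peaks, of 9 and 10 fragments, were at 135591969 to 135592153 and 135622935 to 135623078, more than 2 kb from any Cre peak. Neither list had a call within 1 kb of an annotated end of Nfkb1.

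A surplus of 7 Cre peaks, as Traf2 and Nfkb1 each had, was uncommon. Across all protein-coding genes 0.224% had at least 7 more Cre than GFP peaks and 0.169% at least 7 more GFP than Cre peaks; the number 7 was taken from these 2 genes. Most genes have too few peaks to reach it. Among the 632 genes with at least 10 peaks in all, the Cre count was at least 2 times the GFP count in 12.2% and the reverse held in 8.23%.

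Birc2, encoding the ubiquitin ligase cIAP1 (chromosome 9, 7818226 to 7837131), had the same number of peaks in both cultures. It is transcribed from its upper end, with start sites at 7836806 and 7837057. In each library 5 peaks lay about the upper start site, some below and some above it, within a span of 3089 bp. They covered 1400 bp (Cre) and 1477 bp (GFP). Upward along the chromosome the Cre summits had 10, 17, 19, 15 and 14 fragments and the GFP summits 12, 12, 32, 14 and 12. Of these, 4 in each list overlapped a peak of the other. The unpaired peaks were the fifth in the Cre list and the fourth in the GFP list, each within 1 kb of a peak in the other.

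The acetylated flanks of Birc2 left a gap over the upper start site. No peak covered 7836829 to 7837355 in the Cre list (527 bp) or 7836826 to 7837430 in the GFP list (605 bp), whereas the lower start site was under a peak in both. The sequence in the gap upstream of the annotated gene is shown here because both cultures left it without a peak while marking both of its sides. It comes from RefSeq (GRCm38.p6, the mm10 chromosome coordinates) and is printed 5′ to 3′ on the gene's strand.

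Birc2, chr9:7837132-7837307, - strand: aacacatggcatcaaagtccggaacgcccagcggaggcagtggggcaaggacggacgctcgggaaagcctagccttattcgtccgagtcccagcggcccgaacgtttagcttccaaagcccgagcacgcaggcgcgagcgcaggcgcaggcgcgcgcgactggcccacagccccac

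The 300-base RefSeq window around this start site, 250 bases before it and 50 after, held the CRE octamer TGACGTCA, outside the printed stretch. It is a palindrome that ATF and CREB factors are known to bind. Of all 32851 promoter windows searched on both strands, 1.79% held it.

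**Figure D2:**
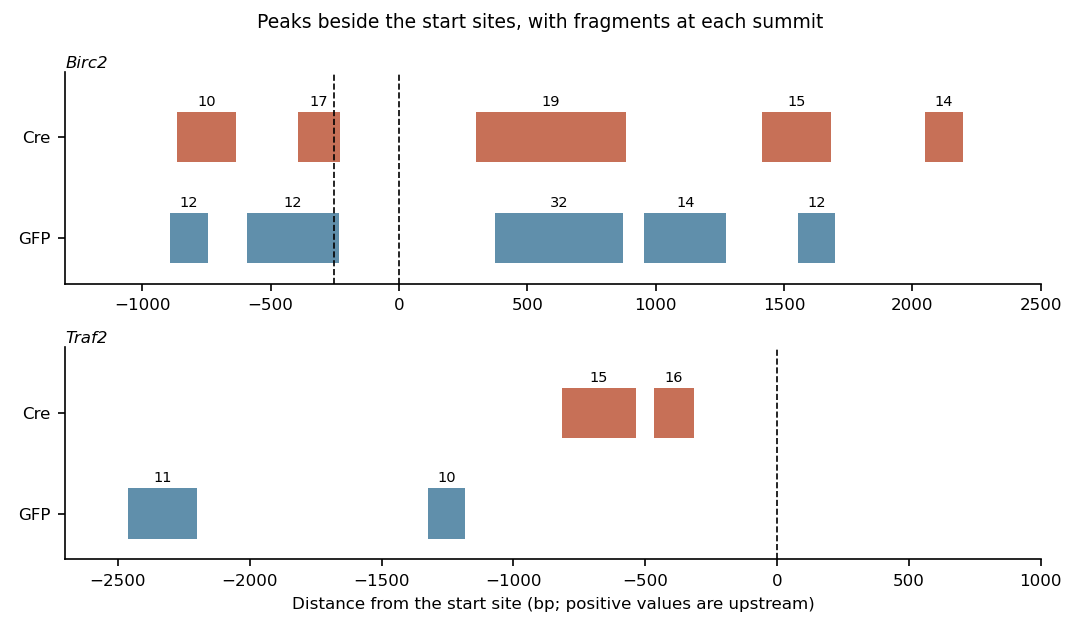
Peaks (boxes, to scale) of the Cre and GFP lists around the start sites of Birc2 and Traf2, both on the minus strand; the horizontal axis is distance from the upper start site in bp with positive values upstream, dashed lines are start sites and numbers are fragments at each summit. Birc2 has peaks of both libraries on either side of position 0, and at Traf2 only the Cre peaks of 15 and 16 fragments lie within 1 kb of it.

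Upstream of Birc2 stood the largest summit of all 47 peaks, and it was in the control. The GFP peak at 7837431 to 7837930 had 32 fragments (21.9 to 45.2, fold 11.5), and the Cre peak that contained it, 7837356 to 7837942, had 19 (11.4 to 29.7, fold 7.81). Their summits were 51 bp apart. The Cre library held 37.3% of the fragments (24.1 to 51.9), an interval that reached the 51.5% given by depth. The other 3 overlapping pairs of Birc2 had 10 and 12, 17 and 12, and 15 and 12 fragments in the Cre and GFP library, with intervals that all took in that share.

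Nfkbiz encodes IκBζ, a nuclear IκB protein that acts as a cofactor of NF-κB, at 55811375 to 55838954 on chromosome 16. Both cultures had a peak just inside its upper end, at 55838271 to 55838613 in the Cre list (17 fragments) and at 55838286 to 55838587 in the GFP list (10). The GFP peak lay inside the Cre peak. The Cre share of their fragments was 63.0% (42.4 to 80.6), which took in the depth share. The gene Nxpe3 lies 999 bp above Nfkbiz, and these peaks lay 1340 and 1366 bp from it. In the interior of Nfkbiz the Cre list had a 623 bp peak of 15 fragments at 55820985 to 55821607 and the GFP list a 348 bp peak of 10 fragments at 55822619 to 55822966. They missed each other by 1011 bp. The former was the one clear Cre call among these genes with no GFP peak within 1 kb.

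Of the other inhibitor gene, Nfkbia (chromosome 12, 55489409 to 55492647), which encodes IκBα and is a well-known transcriptional target of NF-κB, only the 3′ end was marked. The Cre list had 1 peak of 12 fragments (fold 5.08) at 55489948 to 55490131. The gene is transcribed from its upper end, so the peak's upper edge lay 2516 bp downstream of the start site at 55492647. The nearest GFP peak to the gene was 41658 bp away. No peak of either list lay within 1 kb of the Nfkbia start site.

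Rel, which encodes the c-Rel subunit (chromosome 11, 23736847 to 23770969), had a single GFP peak of 11 fragments (fold 6.16) at 23770070 to 23770440. It was 371 bp wide, and its upper edge lay 529 bp inside the start site. The nearest Cre peak to this one was 104662 bp away. The GFP peak of Chuk, which encodes the kinase IKKα (chromosome 19, 44073334 to 44107505), had 9 fragments (fold 5.01) and lay at 44107702 to 44107909. It was upstream of the start site at 44107477 and 728 bp from the next gene, Cwf19l1. No Cre peak lay within 158794 bp of it. These summits of 9 and 11 fragments were below the median of their list, and the smallest summit in either list had 7. The fragments of the other library at these sites are not in its peak list.

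The upstream sequences of Chuk, Rel and Nfkbia are shown because their calls were made in a single library and lay in different places relative to the start site. In the Chuk sequence, capitals mark the 26 bases of the promoter window that lay under the GFP peak. In the other sequences capitals mark matches to the 10-base NF-κB consensus, the κB site, searched on both strands. No peak covered any base of the Rel or Nfkbia windows.

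Chuk, chr19:44107506-44107727, - strand: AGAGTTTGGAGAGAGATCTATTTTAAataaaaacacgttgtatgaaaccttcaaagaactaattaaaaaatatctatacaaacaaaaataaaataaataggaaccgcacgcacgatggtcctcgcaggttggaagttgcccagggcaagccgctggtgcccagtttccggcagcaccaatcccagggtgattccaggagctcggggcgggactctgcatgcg

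Rel, chr11:23770970-23771219, - strand: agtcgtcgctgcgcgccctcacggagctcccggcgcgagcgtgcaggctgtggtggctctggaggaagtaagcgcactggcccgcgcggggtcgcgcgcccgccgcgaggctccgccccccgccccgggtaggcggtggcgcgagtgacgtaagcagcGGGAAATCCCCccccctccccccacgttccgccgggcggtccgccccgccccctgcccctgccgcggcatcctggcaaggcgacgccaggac

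Nfkbia, chr12:55492648-55492897, - strand: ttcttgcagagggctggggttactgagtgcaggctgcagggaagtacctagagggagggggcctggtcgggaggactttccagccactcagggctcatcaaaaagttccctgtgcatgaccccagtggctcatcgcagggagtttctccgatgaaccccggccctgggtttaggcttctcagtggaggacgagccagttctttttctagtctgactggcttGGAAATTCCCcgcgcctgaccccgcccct

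The Rel match is a pair of overlapping matches. Of the 10 promoter windows that RefSeq gave for 7 members, 5 held the κB consensus, in Rel, Nfkbia and all 3 windows of Nfkb2, of which a pair overlap. By gene these were 3 of 7, a count for which no share over all genes was made. Counted by window, the consensus was found in 8.46% of all 32851 windows and in 9.25% of those of protein-coding genes. None of these 5 windows was touched by a peak of either list, and the windows of Birc2, Chuk, Rela and Traf2 held no match. A match is a description of the letters and not evidence of binding. Nfkb1, Relb and Nfkbiz were not in the promoter table.

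Nfkb2, Rela and Relb, which encode p52 with its precursor p100, p65 and RelB, had no called acetylation. The nearest peaks to Nfkb2 (chromosome 19, 46300994 to 46312400) were a Cre peak 35990 bp away and a GFP peak 15823 bp away. For Rela (chromosome 19, 5637442 to 5648134) these distances were 76762 and 27191 bp, and for Relb (chromosome 7, 19606217 to 19629438) 28813 and 36048 bp. The subunit genes therefore had 10 Cre peaks, all in Nfkb1, and 4 GFP peaks, in Nfkb1 and Rel. A gene without a peak had no region that passed the caller's threshold at this depth, which does not show that the mark was absent.

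With the limit at 15 fragments, clear calls made up a larger part of the Cre peaks than of the GFP peaks at these genes. Of 30 Cre peaks 13 were clear, 14 had 10 to 14 fragments and 3 were weak, with a median of 13. Of 17 GFP peaks 1 was clear, 13 had 10 to 14 fragments and 3 were weak, with a median of 11. Over the whole lists 23.3% of Cre and 21.6% of GFP peaks were clear. The 13 clear Cre calls were 6 in Traf2, 3 in Birc2, 2 in Nfkb1 and 2 in Nfkbiz. The clear GFP call was the one above Birc2. The size of this contrast depended on the limit. With 12 fragments as the limit the numbers were 17 and 7, and with 20 they were 2 and 1. By a −log10 q-value from 5 upward they were 18 and 8. No share over the whole lists was made at these other limits, so only the counts at 15 fragments have one beside them. Genes with several peaks give most of these calls, and the difference between the libraries was not tested. The caller's local expected pileup exceeded its genome background at 15 of the 30 Cre and 7 of the 17 GFP peaks, against 42.2% and 29.9% of the whole lists.

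Of the 30 Cre peaks 9 overlapped a GFP peak, 30% (14.7 to 49.4), and of the 17 GFP peaks 9 overlapped a Cre peak, 52.9% (27.8 to 77.0). The whole lists had 40.7% and 41.4%. The clear Cre peaks were shared in 8 of 13 cases, where 70.6% of all clear Cre peaks were. Those of 10 to 14 fragments were shared in 1 of 14 cases, 7.14% (0.181 to 33.9), against 34.6% in the whole list. The weak ones were shared in 0 of 3, where 18.5% of all weak Cre peaks were. The single clear GFP peak was shared, as were 71.6% of clear GFP peaks in the whole list. GFP peaks of 10 to 14 fragments were shared in 7 of 13 cases, 53.8% (25.1 to 80.8), against 36.0% in the whole list. The weak GFP peaks were shared in 1 of 3, against 22.2%. These differences from the whole lists were not tested. All shared sites were in Birc2 (4), Traf2 (3), Nfkb1 (1) and Nfkbiz (1). The 5 clear Cre peaks without an overlap were 3 in Traf2, 1 in Nfkb1 and 1 in Nfkbiz, and a GFP peak lay within 1 kb of all but the one in Nfkbiz. Thus 12 of the 13 clear Cre peaks had a GFP peak within 1 kb, against 85.2% of all clear Cre peaks.

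**Figure D3:**
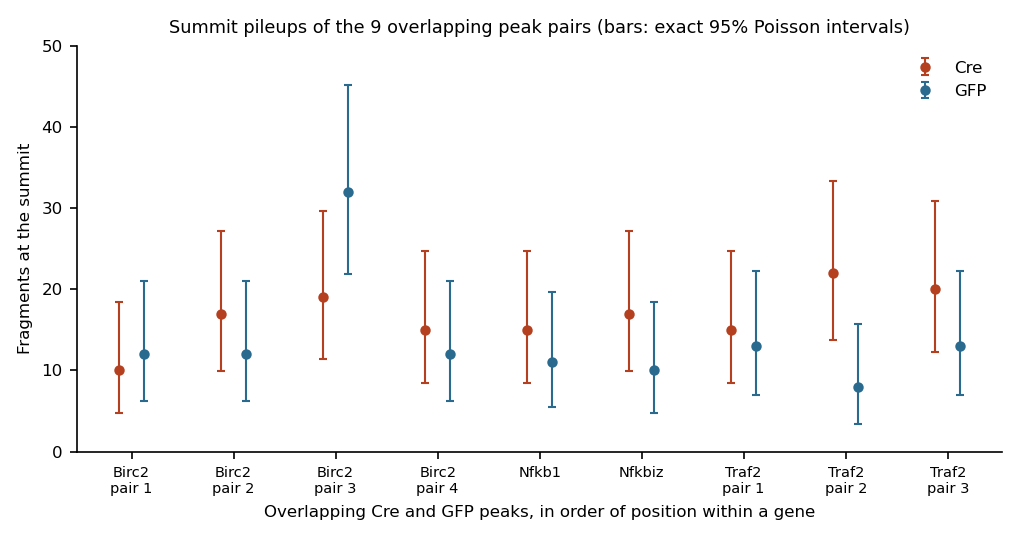
Fragments at the summit (vertical axis) of the 9 pairs of overlapping Cre and GFP peaks at NF-κB genes, ordered by position within each gene; bars are exact 95% Poisson intervals. The Cre point is higher in 7 pairs and the GFP point in 2, and the intervals of the 2 libraries overlap in all pairs.

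In the 9 shared pairs the Cre summit was higher in 7 and the GFP summit in 2, both in Birc2. The median Cre share of fragments was 57.7%, and it was 50% over all overlapping pairs in the lists, of which 46.7% had the higher summit in the Cre library. Pairs of 1 gene share a locus, and each summit is the maximum of its own peak.

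At annotated gene ends the libraries did not differ in number. Within 1 kb of either end, a Cre peak was called at Traf2, Nfkbia, Nfkbiz and Birc2 and a GFP peak at Rel, Chuk, Nfkbiz and Birc2, 4 of 10 genes in each library. Among all protein-coding genes these shares were 13.5% and 14%. Counted at start sites, for the 7 members with a promoter entry, Traf2 and Birc2 had a Cre peak and Rel, Chuk and Birc2 a GFP peak within 1 kb. The shares over the 17492 protein-coding genes with an entry were 14.5% and 15.2%.

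Of 37 other genes of the pathway, 15 had a peak in their neighbourhood, with 39 Cre and 26 GFP peaks. Among all protein-coding genes 32.4% had a peak of either list. The Cre peaks covered more at 12 of the 15 and the GFP peaks at 3, where the shares over all genes with any peak were 49.1% and 50.8%. Without Birc3, whose 3 and 3 peaks are those upstream of Birc2, there were 36 Cre and 23 GFP peaks. The Cre peaks then covered more at 11 genes and the GFP peaks at 3. The 19 receptor and adaptor genes, Birc3 among them, had 16 Cre and 17 GFP peaks. Tnfrsf1a, the main TNF receptor gene, had 6 and 5, with end calls of 15 and 14 fragments, and Il1r1, the IL-1 receptor gene, had 3 and 3. Traf3, which restrains the non-canonical branch, had 2 GFP peaks and no Cre peak, with an end call of 12 fragments.

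Of the 10 kinase and ubiquitin genes 5 had a peak, with 13 Cre and 5 GFP peaks in all, and all 5 covered more in the Cre library (49.1% of all genes with any peak did). Map3k7 and Map3k14, which encode the kinases TAK1 and NIK, had an end call in the Cre list alone (11 and 12 fragments). Tab2, an adaptor of TAK1, had 5 and 3 peaks. Ikbkb and Ikbkg, which encode the partners of IKKα in the kinase complex, had no peak in either list. Among the 8 inhibitor and deubiquitinase genes, Bcl3, a nuclear IκB protein, had 8 Cre peaks and 1 GFP peak. The GFP peak had 16 fragments, and the highest Cre summit had 15. The Bcl3 end call of 13 fragments was in the Cre list alone, where 2 peaks lay within 1 kb of an end. The feedback inhibitor Tnfaip3 had none. Over these 37 genes an end call was made in both lists at 5, in the Cre list alone at 3 and in the GFP list alone at 1. Over all protein-coding genes these shares were 9.26%, 4.28% and 4.77%.

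**Figure D4:**
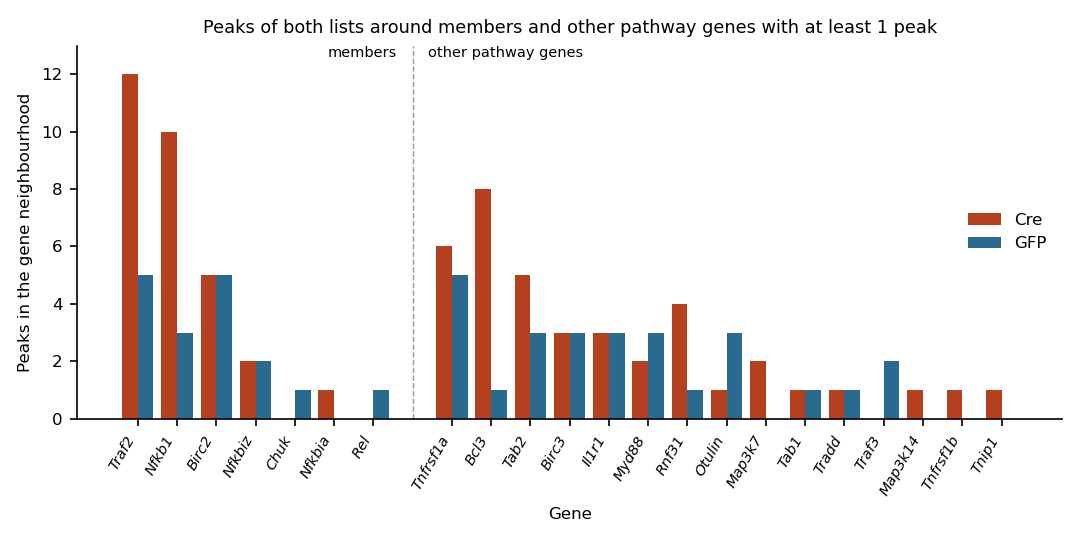
Number of peaks (vertical axis) of the Cre and GFP lists in the neighbourhood of each NF-κB member (left) and each other pathway gene (right) with at least 1 peak. Traf2 (12 and 5), Nfkb1 (10 and 3) and Bcl3 (8 and 1) have the widest spacing between the bars, and Birc2 has 5 of each.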

How the data were processed

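H3K27ac ChIP-seq was represented by 1 peak list per library (Cre and GFP); the 2 input libraries were not analysed here. Per the submitters' processing notes, bcl2fastq 1.8.4, BWA, Picard, SICER and mm10 were used. The deposited lists are named as MACS2 output; no header or label records its version, settings or control. Each deposited row gives a score, a fold enrichment (ratio of observed to expected pileup), a −log10 p-value and a −log10 q-value, and the summit offset; in 100% of rows this score is 10 × −log10 q cut to a whole number. These values are the authors' and describe peaks within their own list.

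Fold and −log10 p were solved together for a whole-number pileup k and an expected pileup (fold is k + 1 over expected + 1, Poisson upper tail); 100% of peaks in both lists fitted within 0.001 on the −log10 p scale. The commonest expected pileup was 1.01 (Cre) and 0.949 (GFP), a ratio of 1.06, taken here as the relative depth of the libraries; total reads per library were not used here. Intervals are exact (Clopper-Pearson or Poisson, 95%) and cover counting error only. Overlap meant at least 1 shared bp, and peaks up to 2 kb apart were linked into clusters. Motifs were searched on both strands. The solver and overlap count were tested on simulated data. Genes, start sites and upstream sequences came from RefSeq tables of GRCm38.p6; coordinates are 1-based. With 1 library per group no test between cultures was made. All 10 members are named; other pathway genes are named if an end call was in 1 list only or among those with most peaks, and a few with no peak were named after their values were seen. The members and lists were chosen with earlier results of these data known. Python 3.11.15, pandas 2.3.3 and scipy 1.17.1 were used.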

Additional observations from a re-analysis of the deposited data

How the results depend on the processing

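Under 58 recomputed values for 10 results, 42 stayed within 1.5 times the reported count, or within the 95% interval of the reported share (that of the share of peaks, for covered length). The settings covered the width of the neighbourhood, stricter peaks, merging, the definition of overlap, of a clear call and of a gene end, and the removal of genes. A limit to peaks whose nearest protein-coding gene was a member was also among them. All 47 peaks met it, so its values could not move and count among the 42. The intervals were wide (48.5 to 77.3 for the Cre share of peaks), so staying within them is a loose criterion. Peaks limited to a −log10 q-value from 5 upward numbered 18 in the Cre and 8 in the GFP list, and 2 genes had a GFP end call. For this limit no share over all peaks or all genes was made. Without Traf2 there were 18 Cre peaks. Without Traf2 and Nfkb1, a setting chosen after seeing the data, 8 Cre and 9 GFP peaks remained to count. The Cre library then had 47.1% of peaks and 48.5% of covered length, and 62.5% of Cre peaks overlapped a GFP peak. With a GFP peak within 1 kb counted as shared, 50% of Cre peaks were shared (64.8% of the whole list). With overlap over at least 50% of both peaks, 10% of Cre and 17.6% of GFP peaks were (21.8% and 22.2% of the whole lists). Clear GFP calls numbered 7 from 12 fragments and 8 by a −log10 q-value from 5 upward. From 20 fragments there were 2 clear Cre calls and 1 clear GFP call. Whole-list shares were not made at these limits. At start sites of the promoter table, also chosen after seeing the data, 2 genes had a Cre call. The pileups, mostly 9 to 22 fragments, limit what a single missing call can show. No paired analysis was possible because each group had 1 library and no replicate numbers.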

Other observations

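Widening the flanks to 50 kb put peaks beside all 3 subunit genes that had none. Around Relb the Cre list had 3 further peaks and the GFP list 4, and the peaks of 16 Cre and 13 GFP fragments at 19665490 to 19665898 and 19665487 to 19666040 on chromosome 7 overlapped, nearest to Clptm1. Rela gained 2 GFP peaks, of 13 fragments inside Kat5, an acetyltransferase gene, and 11 inside Map3k11. Nfkb2 gained 1 Cre peak of 11 fragments nearest to Mfsd13a and 1 GFP peak of 12 inside Fbxl15. Nfkbia gained 2 Cre peaks and 1 GFP peak on its lower side, all nearest to Psma6, with no overlap between the lists. Traf2 gained 2 Cre peaks, inside C8g and Edf1, and no GFP peak. The gene named beside a peak is the closest one and was not shown to be its target.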
